A study of Mus musculus with 12 samples.

Results

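The 9 genes described here, Fn1, Vcan, Tnc, Postn, Thbs1, Thbs2, Sparc, Bgn and Cd44, encode matricellular proteins, components of provisional matrix and a matrix receptor, and each was found by its gene symbol among the 22183 genes of the deposited table. They were measured by bulk RNA sequencing of aorta, taken from the ascending part down to the distal bifurcation, in 12 libraries with 4 in each of 3 groups. All mice were male ApoE-/- animals, 8 weeks old at the start, so the deletion of Apoe, which makes mice prone to atherosclerosis, is shared by every group and there is no wild-type reference. HFD+TUDCA mice ate a high-fat diet (16% fat with 0.25% cholesterol) and, after 8 weeks of it, received tauroursodeoxycholic acid (TUDCA, a conjugated bile acid used as a chemical chaperone) by gavage at 1000 mg/kg daily for 4 weeks. HFD mice ate the same diet and received saline for the same 4 weeks. NFD mice ate a normal-fat diet (5% fat, no cholesterol) and also received saline. The labels do not say whether a library holds RNA of 1 animal or of several, so p-values measure the spread between these libraries.

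Provisional matrix is the loose, fibronectin- and versican-rich scaffold that tissues lay down around injury and inflammation before, or in place of, mature collagen. Matricellular proteins such as thrombospondins, tenascin-C, periostin and SPARC are secreted into matrix without being its main structural parts, and they bind growth factors, proteases and cell-surface receptors. In the arterial wall these proteins are made mainly by smooth muscle cells, fibroblasts and endothelial cells and accumulate in plaques, while CD44, the receptor for hyaluronan, is carried by leukocytes and by activated wall cells. Fewer cells of a type and less RNA per cell cannot be told apart in bulk tissue.

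Library totals lay between 15199317 and 22061692 counts. The log2 levels of libraries of the same group correlated at 0.855 to 0.981 across genes. Levels are given as CPM, the counts of a gene per 1000000 counts of the library, after scaling by trimmed mean of M values over the 12 libraries. At these depths 3 counts correspond to 0.136 to 0.197 CPM, far below the lowest member value of 5.79 CPM, so all 9 genes passed the filter on low counts in every comparison. Apoe itself was still counted at 11 to 33.1 CPM in HFD+TUDCA, 15.1 to 23.1 CPM in HFD and 11.4 to 18.3 CPM in NFD libraries, and which part of the gene these reads cover is not given. Smooth muscle genes were counted in every library, with Acta2 and Myh11 at 696 to 1956 and 280 to 805 CPM, which by itself does not identify the aorta. Genes of neighbouring tissue were also counted. Heart muscle genes summed to 55.9 to 12036 CPM in HFD+TUDCA, 404 to 3022 CPM in HFD and 3927 to 10543 CPM in NFD libraries. Airway genes summed to 5.93 to 4745, 23.6 to 1708 and 2203 to 5933 CPM in the same groups. In the same order, skeletal muscle genes summed to 18.6 to 1270, 49.3 to 1052 and 131 to 1628 CPM. Adrenal genes summed to 6.23 to 11.6, 8.21 to 3778 and 9.12 to 5588 CPM. Fat cell genes summed to 10597 to 22645, 10890 to 14867 and 13875 to 19611 CPM. HFD replicates 1 and 4 and HFD+TUDCA replicate 4 are treated as standing apart from their groups, after earlier results of these data, and each comparison is also given without those it holds.

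Cd44 was the only member that passed the test between any groups, at an adjusted p under 0.05 (edgeR's quasi-likelihood test on all genes tested, Benjamini-Hochberg adjustment). It was higher in all 4 HFD libraries than in any NFD library. Sparc was lower in all 4 HFD libraries than in any NFD library, but did not pass. Postn and Vcan varied more between libraries within HFD and within HFD+TUDCA than between the group means. Promoters are shown for Cd44, because of the diet difference, and for Postn and Vcan, matrix genes whose levels went up and down with each other. Neither Postn nor Vcan passed in any comparison, and other member pairs, such as Thbs2 and Bgn, lay nearer to each other in pattern. Each sequence is the 250 bases before an annotated transcription start, from RefSeq on GRCm38.p6, written 5′ to 3′ on the strand of the gene, with capitals marking any match, on either strand, to the TATA box (TATAAA), the CCAAT box (CCAAT), the GC box (GGGCGG), the AP-1 site (TGANTCA), the CArG box or the NF-kappaB site.
Cd44 (chr2:102901666-102901915, minus strand): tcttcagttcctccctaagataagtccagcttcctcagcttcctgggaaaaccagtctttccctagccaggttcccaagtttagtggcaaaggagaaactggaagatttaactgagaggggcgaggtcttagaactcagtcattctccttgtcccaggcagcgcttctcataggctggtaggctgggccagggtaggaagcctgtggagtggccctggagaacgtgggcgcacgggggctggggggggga
Postn (chr3:54360857-54361106, plus strand): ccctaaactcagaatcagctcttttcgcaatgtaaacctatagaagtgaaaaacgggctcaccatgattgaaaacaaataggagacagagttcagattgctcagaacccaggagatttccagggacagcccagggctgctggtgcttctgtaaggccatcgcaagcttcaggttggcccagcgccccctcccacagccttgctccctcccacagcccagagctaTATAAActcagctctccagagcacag
Vcan (chr13:89742513-89742762, minus strand): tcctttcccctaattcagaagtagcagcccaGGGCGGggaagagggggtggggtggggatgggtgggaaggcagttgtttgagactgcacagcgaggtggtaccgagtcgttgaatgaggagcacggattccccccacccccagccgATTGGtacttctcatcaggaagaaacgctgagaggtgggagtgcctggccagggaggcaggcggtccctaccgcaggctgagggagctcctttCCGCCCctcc

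In the Cd44 window none of the 6 motifs was found. The Postn window held TATAAA from 26 to 21 bases before the start, a motif in 12.4% of the 32851 windows of this length. A second annotated Postn start has its window at chr3:54359017-54359266, which held none of the 6 motifs. The window printed is the one next to the gene's start in GENCODE M21. The Vcan window held GGGCGG from 219 to 214 and from 10 to 5 bases before the start (32.7% of windows hold it) and CCAAT from 103 to 99 bases before it (33.8%). The other motifs occurred in 6.75% (TGANTCA), 1.47% (CArG box) and 5.93% (NF-kappaB site) of windows, and overlapping matches were allowed. A match in letters is no evidence of a bound factor. Promoter windows were matched for 7 of the 9 genes. Fn1 and Thbs1 had none.

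Cd44 (chr2:102811141-102901665 on GRCm38, minus strand, protein-coding, GENCODE M21) encodes the cell-surface receptor for hyaluronan, which also binds osteopontin. Its levels in HFD replicates 1 to 4 were 122, 132, 125 and 140.4 CPM, against 53.4, 49.3, 41.5 and 38.5 CPM in NFD replicates 1 to 4. The HFD libraries lay close together and well above every NFD library. Cd44 was 2.85-fold higher in HFD (log2 difference 1.51 ± 0.14 SE, edgeR adjusted p = 0.00131, n = 4 each), rank 13 of 14918 genes by p. That makes 1 of 9 members called higher and 0 lower, where 4.83% of all genes tested were called (3.18% higher, 1.64% lower). With 9 genes, a count of 1 is close to that background, and the median log2 difference of the 9 was 0.24, beside 0.04 over all genes. The call held under each of the 18 alternative fits, with log2 differences of 1.35 to 1.59.

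With TUDCA, Cd44 was 51.5, 73.4, 86.9 and 58.4 CPM in HFD+TUDCA replicates 1 to 4, so each of these libraries lay below the lowest HFD library, and replicates 2 to 4 lay above the highest NFD library. The difference between HFD+TUDCA and HFD was -0.91 ± 0.18 on the log2 scale and did not pass (edgeR adjusted p = 0.169, unadjusted p = 0.000567, rank 47 of 14587 genes). Here 0% of genes passed by edgeR (0 of 14587, with 1745 at an unadjusted p under 0.05), while limma-voom called 0 and DESeq2 343. Cd44 was below without overlap, as 4.78% of the genes tested were. It did pass when the spread was estimated in a single fit of all 12 libraries (log2 difference -0.94, edgeR adjusted p = 0.0367) and in DESeq2 (adjusted p = 0.00223). Between HFD+TUDCA and NFD the Cd44 difference was 0.56 ± 0.19 and the groups overlapped (edgeR adjusted p = 0.265). HFD+TUDCA libraries averaged 67.6 ± 15.8 CPM, HFD libraries 129.7 ± 8.39 CPM and NFD libraries 45.7 ± 6.87 CPM (SD, n = 4 each).

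Macrophage genes, taken as a sum, were higher in every HFD library than in any other library, as Cd44 was. Within each group the libraries did not fall in the same order for Cd44 and for the macrophage sum. The summed level of 14 macrophage markers was 3900, 3973, 4668 and 1797 CPM in HFD+TUDCA replicates 1 to 4, 7057, 6958, 7622 and 6863 CPM in HFD, and 3205, 3908, 2393 and 3230 CPM in NFD, and all 14 had counts in each group. The defining markers Cd68 and Adgre1 reached 50.6 to 108 and 39.4 to 97.5 CPM in HFD+TUDCA, 156 to 234 and 69.0 to 193 CPM in HFD, and 36.4 to 51.7 and 41.2 to 52.3 CPM in NFD libraries. Neutrophil genes were at 83.6 to 249 CPM in HFD+TUDCA, 311 to 1432 CPM in HFD and 50.1 to 67.7 CPM in NFD libraries. The part of either cell type in the Cd44 difference was not tested. HFD+TUDCA replicate 4 had the lowest macrophage sum of the 12 libraries and a Cd44 level in the middle of its group.

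**Figure D1:**
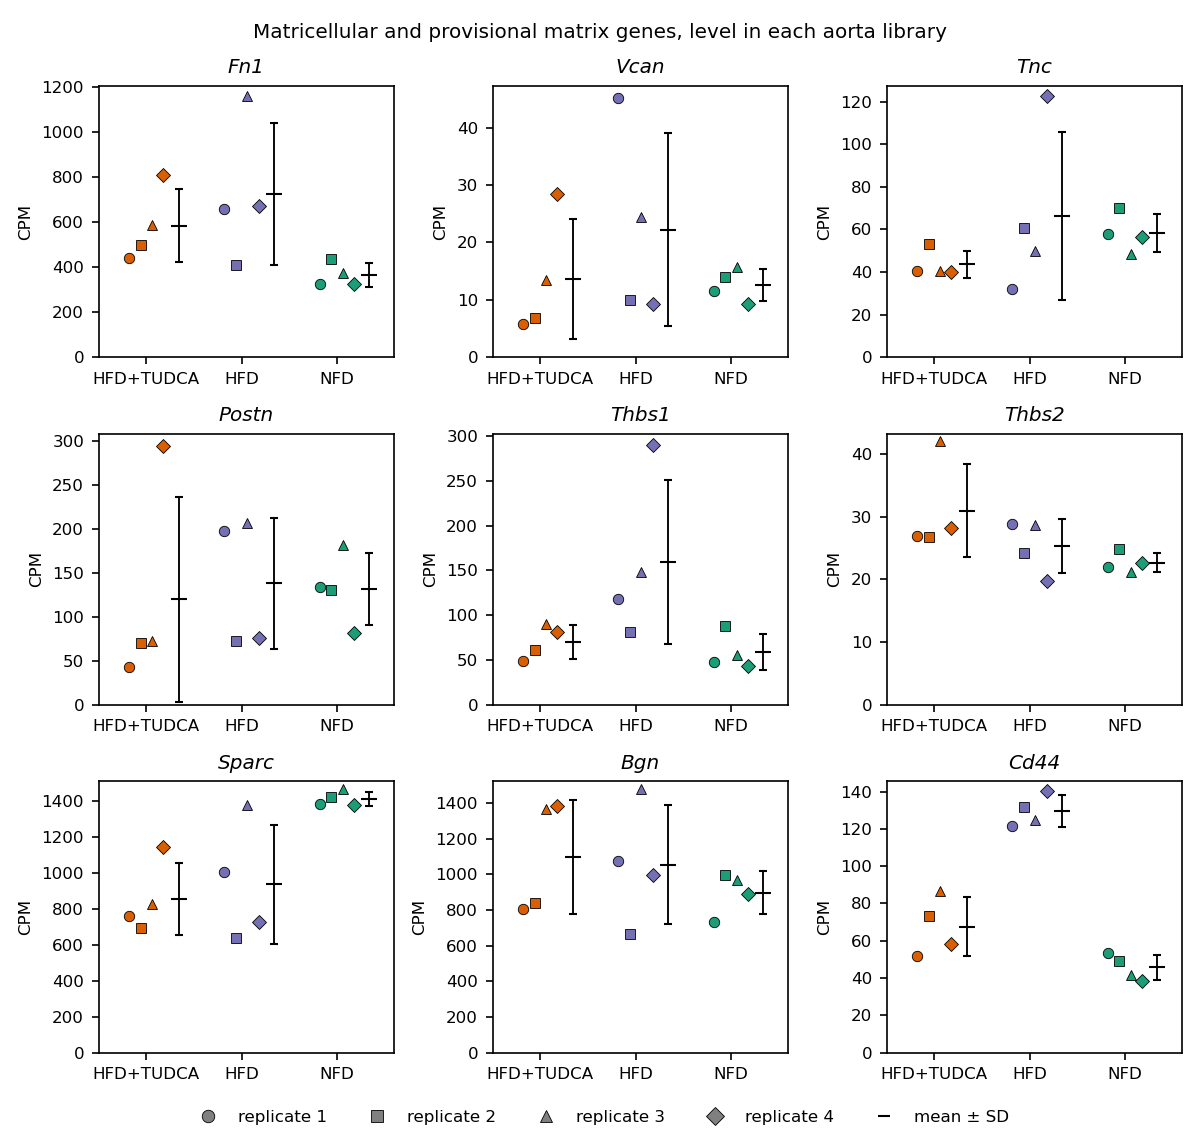
Level in CPM (linear axis from 0) of each of the 9 genes in the 4 libraries of HFD+TUDCA, HFD and NFD; symbols are replicates and the bar beside them is the mean ± SD. Cd44 lies between 122 and 140.4 CPM in HFD and between 38.5 and 53.4 CPM in NFD, and single libraries stand out for Thbs1 and Tnc (HFD replicate 4) and Postn (HFD+TUDCA replicate 4).

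Fn1 (chr1:71585520-71653200, minus strand, protein-coding) encodes fibronectin, the glycoprotein on which provisional matrix is assembled. Its levels were 656, 408, 1162 and 671 CPM in HFD replicates 1 to 4, against 325, 435, 372 and 325 CPM in NFD. HFD replicate 2 fell inside the NFD range and the other HFD libraries lay above it. The difference of 0.99 ± 0.29 on the log2 scale, 1.99-fold, did not pass (edgeR adjusted p = 0.0835). With a library left out it passed in 1 of 8 fits, without HFD replicate 2, the lowest HFD library (1.19, edgeR adjusted p = 0.0280). HFD+TUDCA libraries had 439, 499, 588 and 809 CPM, all above the highest NFD library of 435 CPM. This difference of 0.68 ± 0.20 from NFD did not pass either (edgeR adjusted p = 0.222), and 3.88% of genes lay above NFD without overlap in that comparison. From HFD the HFD+TUDCA libraries differed by -0.28 ± 0.34 (edgeR adjusted p = 0.765).

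Vcan (chr13:89655312-89742509, minus strand, protein-coding) encodes versican, the large proteoglycan that binds hyaluronan and retains lipoproteins in the intima. It was the lowest member in abundance. In HFD its levels were 45.2, 9.91, 24.5 and 9.27 CPM, against 11.6, 13.9, 15.6 and 9.25 CPM in NFD, so replicates 1 and 3 of HFD lay above the NFD range while replicates 2 and 4 lay at its lower end. The log2 difference was 0.84 ± 0.49 (edgeR adjusted p = 0.379), and it was 0.20 without HFD replicate 1. HFD+TUDCA libraries had 5.79, 6.76, 13.4 and 28.4 CPM, spread on both sides of NFD. The log2 difference of HFD+TUDCA was -0.68 ± 0.66 from HFD (edgeR adjusted p = 0.703) and 0.11 ± 0.47 from NFD (edgeR adjusted p = 0.961), and the sign of the second turned to -0.56 without HFD+TUDCA replicate 4.

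Tnc (chr4:63959785-64047015, minus strand, protein-coding) encodes tenascin-C, a hexameric glycoprotein induced in injured and inflamed vessels. HFD levels were 32.1, 60.9, 49.9 and 123 CPM, against 57.8, 70.2, 48.3 and 56.6 CPM in NFD. Both the lowest and the highest of the 12 libraries were HFD libraries. The log2 difference of 0.19 ± 0.35 did not pass (edgeR adjusted p = 0.816) and was -0.32 without HFD replicate 4. In HFD+TUDCA the levels were 40.7, 53.0, 40.6 and 39.9 CPM, of which 3 lay below every NFD library. Its log2 difference was -0.57 ± 0.35 from HFD (edgeR adjusted p = 0.548) and -0.42 ± 0.15 from NFD (edgeR adjusted p = 0.309).

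Postn (chr3:54361109-54391037, plus strand, protein-coding) encodes periostin, an integrin-binding protein of activated fibroblasts and of developing valves. Its levels in HFD were 198, 72.1, 207 and 75.6 CPM, against 134, 130.2, 182 and 81.5 CPM in NFD. HFD split into a pair of libraries above the NFD range and a pair below it. The log2 difference was 0.08 ± 0.40 (edgeR adjusted p = 0.940). HFD+TUDCA libraries had 43.1, 70.7, 73.1 and 294 CPM, so replicates 1 to 3 lay below every NFD library and replicate 4 above every other library of the study. The log2 difference was -0.17 ± 0.64 from HFD (edgeR adjusted p = 0.941) and -0.13 ± 0.57 from NFD (edgeR adjusted p = 0.961). Without HFD+TUDCA replicate 4 these became -1.12 and -1.10, and neither passed (edgeR adjusted p = 0.286 and 0.0665).

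HFD+TUDCA replicate 4 also had the highest sum of 12 smooth muscle genes, 6025 CPM, where the other HFD+TUDCA libraries had 2884 to 3931, HFD libraries 2455 to 3797 and NFD libraries 3770 to 4679 CPM. Its heart muscle sum of 55.9 CPM and its airway sum of 5.93 CPM were the lowest of the 12 libraries. Mitochondrial genes took 19.2% of its counts, the highest share of the 12 libraries, beside 8.56% to 16.0% in the others. It also had the highest total, 22061692 counts. The part of tissue makeup and of the mitochondrial share in its Postn and Vcan levels was not tested. HFD replicates 1 and 3, the high pair for Postn and Vcan, had smooth muscle sums of 3208 and 3797 CPM, and HFD replicates 2 and 4 had 2455 and 2732 CPM. The osteopontin gene Spp1 and the lumican gene Lum showed the same high pair in HFD. So did the members Sparc, Bgn and Thbs2, so the pair is not particular to Postn and Vcan.

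Thbs1 (chr2:118111876-118127133, plus strand, protein-coding) encodes thrombospondin-1, which activates latent TGF-beta, binds the receptors CD36 and CD47 and is an early-response gene. In HFD its levels were 118, 81.5, 148 and 290.0 CPM, against 48.0, 87.9, 55.8 and 43.6 CPM in NFD. HFD replicate 2 lay inside the NFD range, and the other HFD libraries above it. The difference of 1.44 ± 0.39 on the log2 scale, 2.70-fold, did not pass (edgeR adjusted p = 0.0686). With a library left out it passed in 1 of 8 fits, without HFD replicate 2, the lowest HFD library (1.65, edgeR adjusted p = 0.0305). Without HFD replicate 4 it was 0.95 and did not pass. HFD+TUDCA libraries had 48.6, 61.0, 90.6 and 80.8 CPM, of which only replicate 3 lay above the highest NFD library. The log2 difference was -1.14 ± 0.38 from HFD (edgeR adjusted p = 0.322) and 0.26 ± 0.26 from NFD (edgeR adjusted p = 0.804).

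HFD replicate 4, the highest library for Thbs1 and Tnc, was also the highest for 14 immediate early genes, which summed to 2021 CPM there. HFD replicates 1 to 3 had sums of 676, 869 and 820 CPM, HFD+TUDCA libraries 682 to 828 CPM and NFD libraries 504 to 748 CPM. Its erythroid genes summed to 15019 CPM, beside 3413, 5811 and 2940 CPM in HFD replicates 1 to 3. Platelet genes, named because platelets carry thrombospondin-1, summed to 32.3 to 59.8 CPM in HFD+TUDCA, 31.1 to 69.6 CPM in HFD and 45.1 to 48.4 CPM in NFD libraries, with the highest value again in HFD replicate 4. Adrenal genes summed to 3778 CPM in HFD replicate 4, beside 8.21, 14.9 and 1050 CPM in HFD replicates 1 to 3. HFD+TUDCA libraries had adrenal sums of 6.23 to 11.6 CPM and NFD libraries 9.12 to 5588 CPM. The part of blood cells, of adrenal tissue and of the immediate early response in the Thbs1 level was not tested. Fn1 shares 2.50%, Thbs1 3.42% and Tnc 2.26% of its exonic bases with a gene annotated on the opposite strand, and reads of the overlapping strands cannot be separated because the labels name no strand-specific library kit.

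**Figure D2:**
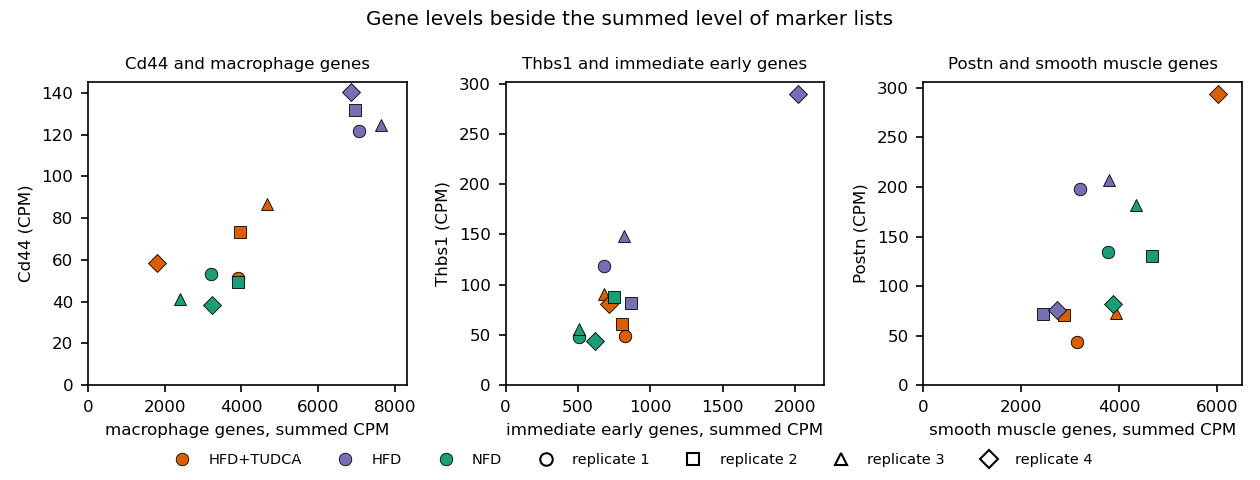
Level of Cd44, Thbs1 and Postn (CPM, vertical axes) against the summed CPM of macrophage, immediate early and smooth muscle genes (horizontal axes), 1 point for each of the 12 libraries, coloured by group with the replicate as symbol. The HFD libraries lie at the upper right for Cd44, HFD replicate 4 lies alone for Thbs1 at 290.0 CPM, and HFD+TUDCA replicate 4 lies alone for Postn at 294 CPM.

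Thbs2 (chr17:14665500-14694235, minus strand, protein-coding) encodes thrombospondin-2, a close relative that lacks the ability of thrombospondin-1 to activate TGF-beta. HFD levels were 28.9, 24.2, 28.6 and 19.7 CPM, against 22, 24.8, 21.2 and 22.7 CPM in NFD, and the groups overlapped (log2 difference 0.17 ± 0.16, edgeR adjusted p = 0.612). HFD+TUDCA libraries had 26.9, 26.7, 42.1 and 28.2 CPM, each above the highest NFD library. The difference from NFD, 0.45 ± 0.17 on the log2 scale, did not pass (edgeR adjusted p = 0.341), nor did the difference of 0.31 ± 0.22 from HFD (edgeR adjusted p = 0.588). The ratio of Thbs1 to Thbs2 in deposited FPKM (counts scaled for depth and transcript length) was 1.82 to 2.89 in HFD+TUDCA, 3.40 to 14.8 in HFD and 1.94 to 3.57 in NFD libraries. The HFD libraries lay above HFD+TUDCA and overlapped with NFD, and HFD+TUDCA overlapped with NFD.

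Sparc (chr11:55394500-55423183, minus strand, protein-coding) encodes SPARC, or osteonectin, a collagen-binding protein needed for normal collagen fibril assembly. Its levels in HFD were 1002, 634, 1373 and 727 CPM, against 1381, 1419, 1463 and 1378 CPM in NFD. NFD libraries had a coefficient of variation of 2.84%, and 1.65% of the 9783 genes with at least 10 CPM in NFD had a lower one. The highest HFD library lay just below the lowest NFD library. The log2 difference of -0.59 ± 0.24 did not pass (edgeR adjusted p = 0.200). With a library left out it passed in 1 of 8 fits, without HFD replicate 3, the HFD library nearest to NFD (-0.84, edgeR adjusted p = 0.0339). Levels in HFD+TUDCA were 761, 689.9, 826 and 1141 CPM, again all below NFD. The difference of -0.72 ± 0.17 from NFD did not pass (edgeR adjusted p = 0.152). With a library left out it passed in 1 of 8 fits, without HFD+TUDCA replicate 4, the HFD+TUDCA library nearest to NFD (-0.91, edgeR adjusted p = 0.00813). HFD+TUDCA differed from HFD by -0.10 ± 0.30 (edgeR adjusted p = 0.919). Genes lower without overlap made up 6.89% of those tested in HFD against NFD, and 3.43% in HFD+TUDCA against NFD. Smooth muscle sums were 2455 to 3797 CPM in HFD and 3770 to 4679 CPM in NFD libraries, and fibroblast sums 3346 to 4095 CPM in HFD and 3855 to 5074 CPM in NFD, while heart muscle sums did not overlap. The part of these tissues in the Sparc levels was not tested.

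Bgn (chrX:73483602-73495933, plus strand, protein-coding) encodes biglycan, a small leucine-rich proteoglycan that binds collagen and retains lipoproteins. Its levels were 1073, 667, 1481 and 997 CPM in HFD, against 730.1, 998, 969.9 and 888 CPM in NFD. HFD held both the lowest and the highest library of the study. The log2 difference was 0.24 ± 0.24 (edgeR adjusted p = 0.626). HFD+TUDCA libraries had 806, 837, 1365 and 1382 CPM, a low and a high pair. Their log2 difference was 0.08 ± 0.31 from HFD (edgeR adjusted p = 0.938) and 0.29 ± 0.22 from NFD (edgeR adjusted p = 0.708).

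Over the 9 genes, HFD against NFD gave 8 positive differences and 1 negative, with 1 passing. Without overlap, 1 member lay above NFD and 1 below, where 15% of all genes tested did not overlap (8.1% above and 6.89% below). HFD+TUDCA against HFD gave 2 positive and 7 negative differences with a median of -0.28 on the log2 scale, beside 0.00011 over all genes, and none passed. In that comparison 1 member did not overlap, beside 7.53% of all genes (2.75% above and 4.78% below). HFD+TUDCA against NFD gave 6 positive and 3 negative differences with a median of 0.26, beside 0.01 over all genes, and again none passed, where 0.194% of genes did (0.1% higher and 0.0937% lower, 29 of 14942 in all, with 1711 at an unadjusted p under 0.05). Here 3 members did not overlap, Fn1 and Thbs2 above and Sparc below, beside 7.31% of all genes. Each group of libraries serves in 2 of these comparisons, so their values are not independent. Without HFD replicates 1 and 4, Cd44 was again the member that passed in HFD against NFD (1.46, edgeR adjusted p = 0.00451), and the Thbs1 difference was 0.93 (edgeR adjusted p = 0.253) and that of Vcan 0.41 (edgeR adjusted p = 0.682). Without all 3 libraries that stand apart, HFD+TUDCA against HFD gave log2 differences of -0.86 for Cd44, -0.64 for Fn1, -1.002 for Vcan, -0.30 for Tnc, -1.18 for Postn, -0.79 for Thbs1, 0.27 for Thbs2, -0.41 for Sparc and -0.11 for Bgn. None of these passed (edgeR adjusted p of 0.380 to 0.935), and 0 of 15127 genes were called. Without HFD+TUDCA replicate 4, Cd44 differed from NFD by 0.61 (edgeR adjusted p = 0.0813), Fn1 by 0.47, Thbs2 by 0.48 and Sparc by -0.91, of which Sparc alone passed.

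**Figure D3:**
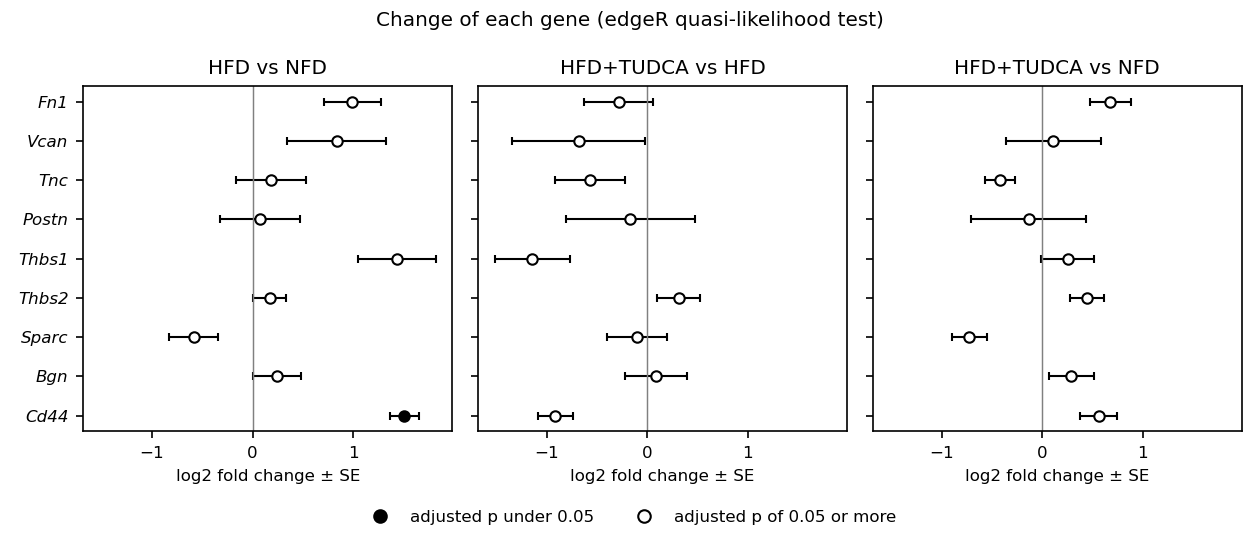
Log2 fold change ± SE (edgeR quasi-likelihood test, n = 4 libraries a group) of each gene in HFD against NFD, HFD+TUDCA against HFD and HFD+TUDCA against NFD; the first-named group is the numerator and filled points have an adjusted p under 0.05. Cd44 in HFD against NFD, at 1.51, is the filled point.

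The members differed among themselves in how they spread over libraries. In HFD the coefficient of variation ran from 6.47% for Cd44, below which lay 3.54% of the 9896 genes with at least 10 CPM in HFD, up to 75.8% for Vcan, where the median gene had 22.6%. Tnc, Postn and Thbs1 were also wide in HFD, at 59.3%, 53.8% and 57.2%. In HFD+TUDCA it was widest for Postn and Vcan at 97.0% and 76.8%, and lowest for Tnc at 14.5%, beside a median of 20.1%. In NFD it ran from 2.84% for Sparc up to 34.1% for Thbs1, beside a median of 12.1%. The 9 genes together took 2223 to 3861 CPM in HFD+TUDCA, 2090 to 4598 CPM in HFD and 2763 to 3228 CPM in NFD libraries.

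**Figure D4:**
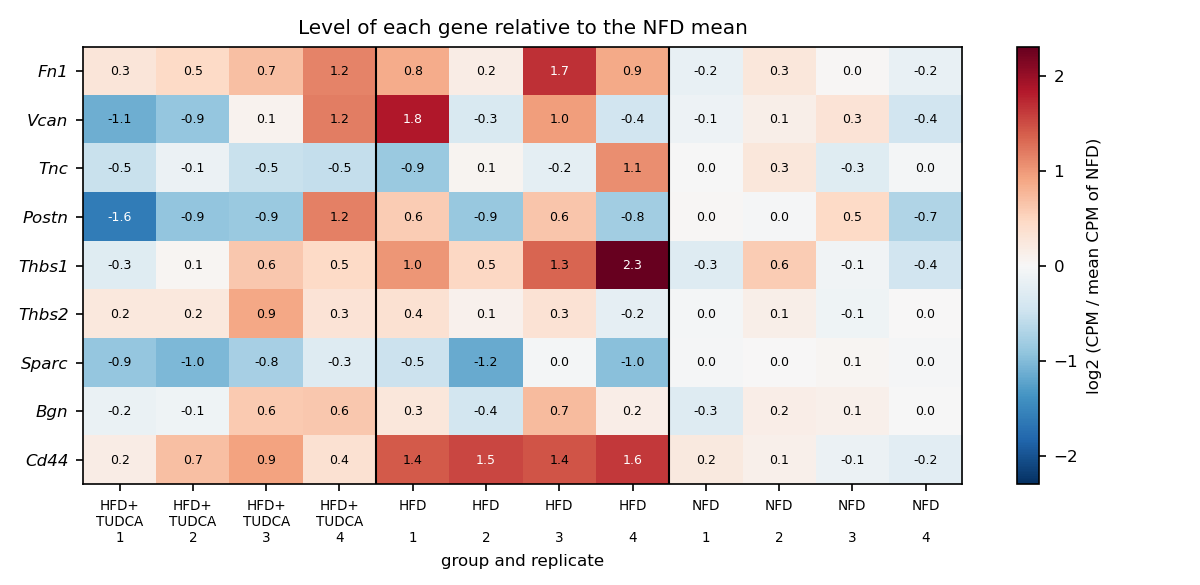
Log2 ratio of the CPM of each gene (rows) in each library (columns, group and replicate) to the mean CPM of the 4 NFD libraries; red is higher and blue lower. Cd44 is red in all 4 HFD libraries, Sparc is below the NFD mean in all 4 HFD libraries, least in replicate 3 (1373 CPM), and in all 4 HFD+TUDCA libraries, and Postn and Vcan are red together in HFD replicates 1 and 3, HFD+TUDCA replicate 4 and, more faintly, NFD replicate 3.

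Per length, in FPKM averaged over the 12 libraries, the order was Sparc (482), Bgn (419), Fn1 (72.9), Postn (43.6), Cd44 (21), Thbs1 (16.3), Tnc (7.90), Thbs2 (4.49) and Vcan (2.71). Bgn stood above Fn1 in all 12 libraries. The other neighbours in this order changed places in some libraries, with the upper gene higher in 8 of 12 for Sparc and Bgn, in 11 of 12 for Thbs1 and Tnc, and in 10 of 12 for each remaining pair. The FPKM ratio of Sparc to Bgn was 0.656 to 1.04 in HFD+TUDCA, 0.798 to 1.03 in HFD and 1.54 to 2.05 in NFD libraries. The ratio of Fn1 to Sparc was 0.163 to 0.217 in HFD+TUDCA, 0.188 to 0.260 in HFD and 0.0677 to 0.0908 in NFD libraries. In both ratios the NFD libraries lay apart from all others; the ratios, like that of Thbs1 to Thbs2, were chosen after the values were seen and are a description with no test.

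FPKM divides a count by a transcript length, and that length could be read back from the deposited counts and FPKM. For Thbs1 it was 5848 bases in all 12 libraries, which is the length of its only coding transcript in GENCODE M21. For the genes below it differed between libraries, so the length behind FPKM was not a fixed one per gene. Vcan, whose isoforms differ by the large exons for the glycosaminoglycan attachment domains, had mean lengths of 5388, 6922, 6251 and 4214 bases in HFD+TUDCA replicates 1 to 4, 6674, 6102, 5636 and 8112 bases in HFD and 7618, 5294, 5342 and 10121 bases in NFD. The groups overlapped and no direction was seen. Fn1, with its alternative extra domains, stayed within 7265 to 7831 bases, Tnc within 7012 to 7100, Postn within 2890 to 3082 and Cd44, whose variant exons are inserted in the extracellular stem, within 3720 to 4006 bases over all 12 libraries, with the groups overlapping in each.

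**Figure D5:**
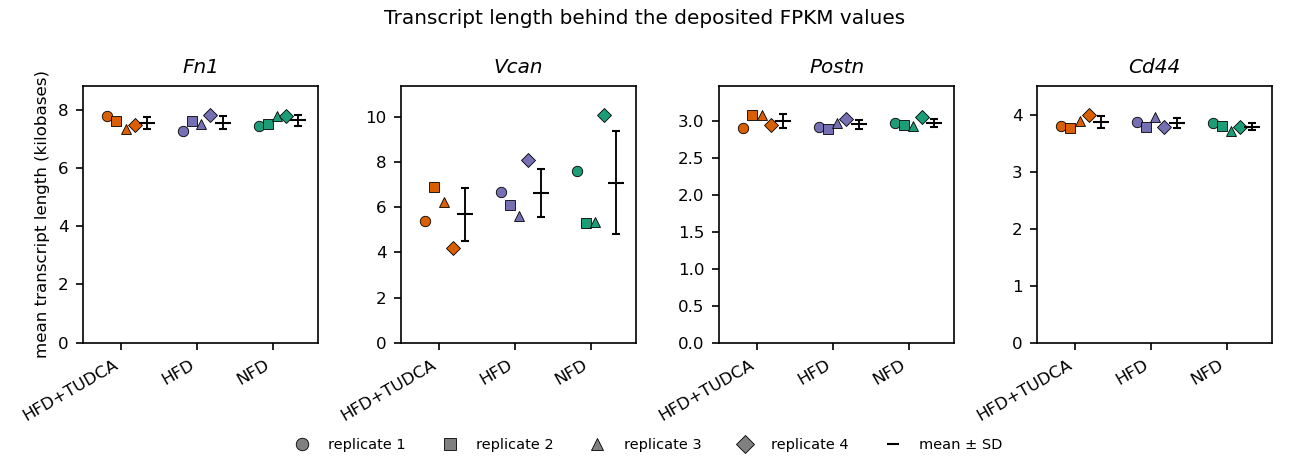
Mean transcript length in kilobases (linear axes from 0) behind the FPKM of Fn1, Vcan, Postn and Cd44 in each library, with the mean ± SD of each group; symbols are replicates. Vcan ranges from 4214 to 10121 bases without separating the groups, and the other genes stay nearly level.

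The genes whose pattern over the 12 libraries was most like each member were found among 14852 genes by the smallest mean absolute difference of log2 CPM, each gene centred on its own mean. For Cd44 these were Creld2 (0.166) and Glipr1 (0.170), and for Fn1 Nupr1 (0.168) and Tm4sf1 (0.174). Vcan lay nearest to Lox (0.185), which encodes lysyl oxidase, and Casp12 (0.241). Tnc lay nearest to Ankrd10 (0.179) and Rbm15 (0.182). Postn had Pls3 (0.154) and Pdgfd (0.166), Thbs1 had Hspa8 (0.277) and Ier3 (0.289), and Thbs2 had Fzd1 (0.117) and Dlg5 (0.131). Sparc was nearest to Tbx2 (0.133) and Timp3 (0.155), an inhibitor of matrix proteases, and Bgn to Fbln5 (0.110), which encodes the elastic fibre protein fibulin-5, and Itgb5 (0.12). Among the members themselves the nearest pairs were Thbs2 and Bgn (0.263), Fn1 and Bgn (0.294) and Postn and Vcan (0.318), and the farthest pair was Tnc and Vcan (0.928).

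Among 26 other matricellular and provisional matrix genes tested, 2 rose in HFD relative to NFD and none fell (median log2 difference 0.09, beside 0.04 over all genes). Over all genes tested 3.18% were called higher and 1.64% lower, and counts as small as those of this list and of the lists that follow are not read as a result about a list. Spp1, which encodes the matricellular cytokine osteopontin, a ligand of CD44 and integrins, had 1197, 283, 1563 and 218 CPM in HFD against 7.24, 6.52, 5.68 and 6.62 CPM in NFD. Every HFD library lay far above NFD, a log2 difference of 6.98 ± 0.74 (edgeR adjusted p = 0.00216) that passed in 8 of 8 fits with a library left out. Spp1 was also higher in HFD+TUDCA, at 66.3, 225, 272 and 479 CPM, than in NFD (5.32 ± 0.56, edgeR adjusted p = 0.00971, passing in 5 of 8 such fits). Emilin2, which encodes an extracellular glycoprotein of the emilin family, was the other gene that rose in HFD (0.86 ± 0.19, edgeR adjusted p = 0.0343, passing in 3 of 8). Thbs4, a thrombospondin, and Fbln1, which encodes fibulin-1, lay below NFD in every HFD library without passing (-1.14 ± 0.31 and -0.65 ± 0.19, edgeR adjusted p = 0.0675 and 0.0795). In that comparison 6.89% of all genes tested lay below NFD without overlap.

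Of 27 matrix receptor genes, 3 rose in HFD and none fell (median 0.22). Sdc3 and Sdc4, which encode the heparan sulfate-bearing receptors syndecan-3 and syndecan-4, differed by 0.93 ± 0.17 and 0.88 ± 0.21 on the log2 scale (edgeR adjusted p = 0.0186 and 0.0472), and Cd47, which encodes a receptor of thrombospondin-1, by 0.67 ± 0.16 (edgeR adjusted p = 0.0431). With a library left out, Sdc3 passed in 5 of 8 fits, Sdc4 in 1 and Cd47 in 1. Sdc1, the syndecan-1 gene, did not pass (0.61 ± 0.15, edgeR adjusted p = 0.0551). Of 18 genes of hyaluronan metabolism and binding, the ligand system of CD44, 1 rose and 1 fell (median -0.04). Tnfaip6, which encodes the hyaluronan-binding protein TSG-6, had 9.93, 7.24, 6.22 and 30.5 CPM in HFD against 1.64, 1.37, 1.86 and 1.73 CPM in NFD (3.03 ± 0.52, edgeR adjusted p = 0.0136, passing in 5 of 8). Hapln1, a link protein that ties versican to hyaluronan, fell at very low levels of 0.18 to 0.674 CPM in HFD against 1.53 to 2.22 CPM in NFD (-2.11 ± 0.42, edgeR adjusted p = 0.0245, passing in 4 of 8). Sums of cartilage markers, 9.19 to 18.5 CPM in HFD and 24.0 to 63.4 CPM in NFD, and of heart muscle genes were likewise lower in all HFD than in any NFD library, and their part in the Hapln1 difference was not tested. The synthase gene Has1 had 4.60, 5.96, 4.35 and 77.4 CPM in HFD replicates 1 to 4, against 0.662 to 1.52 CPM in NFD, and did not pass (4.58 ± 1.11, edgeR adjusted p = 0.0520). Nor did the synthase gene Has3 (-1.29 ± 0.33, edgeR adjusted p = 0.0561).

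Of 11 small leucine-rich proteoglycan genes other than Bgn, none passed in HFD against NFD (median -0.55). Lum, which encodes lumican, had 487, 136, 527 and 95.6 CPM in HFD against 46.1 to 90.3 CPM in NFD (2.15 ± 0.55, edgeR adjusted p = 0.0582), and Fmod, which encodes fibromodulin, differed by -0.86 ± 0.23 (edgeR adjusted p = 0.0613). Chad, a cartilage gene of this list, differed by -3.15 ± 0.77 (edgeR adjusted p = 0.0523) and Podn by -0.55 ± 0.18 (edgeR adjusted p = 0.117). Cartilage markers summed to 6.32 to 64.0 CPM in HFD+TUDCA, 9.19 to 18.5 CPM in HFD and 24.0 to 63.4 CPM in NFD libraries, and their part in the Chad difference was not tested. Of 20 genes of TGF-beta ligands, receptors and targets 1 rose (median 0.15), Lrrc32, which encodes the GARP protein that presents latent TGF-beta (1.12 ± 0.23, edgeR adjusted p = 0.0245, passing in 4 of 8). The signalling inhibitor Skil (0.52 ± 0.13) and the ligand Tgfb3 (-0.51 ± 0.16) did not pass (edgeR adjusted p = 0.0571 and 0.104). Of 13 protease genes 2 rose (median 0.28), Plat, the tissue plasminogen activator gene (0.65 ± 0.14, edgeR adjusted p = 0.0349, passing in 2 of 8), and Adamts1, which encodes a protease that cuts versican (1.39 ± 0.31, edgeR adjusted p = 0.0374, passing in 3 of 8). Adamts4, another versican-cleaving protease, had 11.2, 4.90, 6.95 and 133 CPM in HFD replicates 1 to 4, against 0.952 to 2.15 CPM in NFD, and did not pass (4.81 ± 1.2, edgeR adjusted p = 0.0612). The urokinase gene Plau missed the threshold (0.80 ± 0.20, edgeR adjusted p = 0.0507). Without HFD replicates 1 and 4, Spp1, Emilin2, Tnfaip6 and Lrrc32 still passed, while Sdc3, Sdc4, Cd47, Hapln1, Plat and Adamts1 had edgeR adjusted p-values of 0.0596 to 0.160. Has1 (2.39), Adamts4 (2.06), Fmod (-0.81) and the protease gene Adamts15 (1.18) did not pass with all libraries. They did pass in this fit (edgeR adjusted p = 0.0280, 0.0388, 0.0381 and 0.0115). HFD replicate 4 was the highest library for Has1, Tnfaip6, Adamts4 and Adamts1, as it was for Thbs1 and Tnc. The macrophage and neutrophil sums given with Cd44 also separate HFD from NFD libraries, and their part in the differences of these lists was not tested.

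None of the genes in these 6 lists passed between HFD+TUDCA and HFD, where 0% of all genes were called. The median log2 differences were -0.07 for other matricellular genes, -0.15 for receptors, -0.34 for hyaluronan genes, 0.19 for small leucine-rich proteoglycans, -0.09 for TGF-beta genes and -0.52 for proteases. The genes named next were chosen for small p-values, which favours groups that do not overlap. Over all genes tested 4.78% lay below HFD without overlap and 2.75% above. Tnfaip6 had 1.49, 1.45, 2.95 and 2.33 CPM in HFD+TUDCA, each below every HFD library (-2.66 ± 0.55, edgeR adjusted p = 0.174). Sdc3 also lay below every HFD library (-0.81 ± 0.20, edgeR adjusted p = 0.246), as did Emilin2 (-0.84 ± 0.22), Lrrc32 (-0.74 ± 0.25), Has1 (-3.53 ± 1.01), Adamts4 (-4.45 ± 1.10) and Adamts1 (-1.40 ± 0.36), with edgeR adjusted p-values of 0.245 to 0.322. Sdc4 (-0.73 ± 0.26), Tgfbr2, a TGF-beta receptor gene (-0.43 ± 0.22), and Smoc1, a relative of Sparc (0.50 ± 0.21), overlapped with HFD, while the proteoglycan gene Prelp lay above every HFD library (0.61 ± 0.21) and Fmod overlapped (0.93 ± 0.31). Their edgeR adjusted p-values were 0.332 to 0.463. Without the 3 libraries that stand apart each of these genes kept its sign and none passed (edgeR adjusted p of 0.365 to 0.711), with log2 differences of -1.77 for Tnfaip6, -0.50 for Sdc3, -1.25 for Has1, -1.69 for Adamts4, -1.09 for Adamts1, -0.20 for Tgfbr2 and 0.35 for Prelp. Between HFD+TUDCA and NFD, Spp1 rose as given above and Lyve1, which encodes the hyaluronan receptor of lymphatic vessels and of resident macrophages, fell to 28.3, 38.1, 35.4 and 17.8 CPM in HFD+TUDCA, against 105, 109, 102 and 79.3 CPM in NFD (-1.73 ± 0.23, edgeR adjusted p = 0.0247, passing in 2 of 8 fits with a library left out). HFD libraries had 40.9, 70.9, 33.2 and 66.4 CPM of Lyve1. No other gene of the lists passed in that comparison with all libraries. Without HFD+TUDCA replicate 4, where 682 genes were called in all, Spp1 and Lyve1 passed again and further list genes did. Tgfb1 (0.60), Mfge8 (0.51) and Hapln4 (2.13) were higher than in NFD. Tgfbr3 (-0.51), Stab2 (-0.90), Itga9 (-0.54), Vtn (-0.70), Aspn (-1.25) and Ecm2 (-1.01) were lower (edgeR adjusted p of 0.0173 to 0.0489 for these further genes).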

How the data were processed

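Poly(A) RNA of aorta was used for NEBNext Ultra sequencing libraries (labels' protocols). The authors deposited, per the file headers, a count and an FPKM value per gene for each of the 12 libraries, with no column left unmapped. Of the deposited counts 8.53% to 9.43% per library were not whole, so they are estimated counts, and they were rounded. The submitters' processing notes name GRCm38, and neither aligner nor counter is given in the sources used here.

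Samples were grouped by their titles. Each comparison was fitted on its 8 libraries with edgeR 4.0.16 (R 4.3.3): trimmed mean of M values scaling, filterByExpr (minimum count 10, total 15), robust quasi-likelihood test, Benjamini-Hochberg adjustment over all genes, call under 0.05. SE is the log2 fold change over the square root of F. The fit was also run on counts simulated from the dispersions estimated in these data. Such counts hold no outlying library and no mixed tissue, so that run cannot show how the fit does with either. DESeq2 1.42.0 and limma 3.58.1 (log2 of FPKM with a pseudocount of 1, for limma-trend) were among the alternatives. After seeing the data, the same settings were added for the called genes of the lists, and the fit without the libraries called apart for the genes of the lists. The members, lists and libraries called apart were chosen with earlier results of these data known. Named genes are the 9 members, the 2 genes nearest to each, and from each list up to 4 genes with the smallest p in HFD against NFD and up to 2 in HFD+TUDCA against HFD; a list gene that this rule names is not reported here. Spp1 and Lyve1 in HFD+TUDCA against NFD were named because they passed, and further list genes because they passed there without HFD+TUDCA replicate 4. Adamts15 was named because it passed in HFD against NFD without HFD replicates 1 and 4. Coordinates are from GENCODE M21. Marker lists for fibroblasts, endothelium, skeletal muscle, cartilage, mesothelium, fat and adrenal gland were summed as well.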

Additional observations from a re-analysis of the deposited data

Results flagged for a closer look

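In 3 of the 27 combinations of gene and group, 1 library lay far from the other 3, by the gap to its nearest neighbour as a share of the group's range (Dixon's test at its critical value). Chance gives about 1 in 20 such combinations. All 3 were high values in HFD+TUDCA. Postn had 294 CPM in replicate 4, beside 43.1 to 73.1 CPM in the others. Thbs2 had 42.1 CPM in replicate 3, beside 26.7 to 28.2 CPM. Tnc had 53.0 CPM in replicate 2, beside 39.9 to 40.7 CPM.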

How the results depend on the processing

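Of the 486 refits of a member (27 results under 18 alternatives), 447 kept their direction and their side of the threshold, 11 newly passed and 28 changed sign. The cause was not tested for any of them. In HFD+TUDCA against NFD only HFD+TUDCA replicate 4 stands apart, so the fit without it is counted under both names in these numbers. Cd44 in HFD against NFD passed under all 18 (edgeR, limma and DESeq2 adjusted p of 1.26e-20 to 0.00997). Members called in HFD against NFD, 1 as reported, were 3 in DESeq2 (Cd44, Fn1 and Thbs1) and 1 to 3 with a library left out. In HFD+TUDCA against HFD, 0 as reported, they were 1 in DESeq2 and in one fit of all 12 libraries (Cd44), and 0 to 0 with a library left out. In HFD+TUDCA against NFD, 0 as reported, they were 2 in DESeq2 (Fn1, adjusted p = 0.0475, and Sparc, adjusted p = 0.00472), 1 without the libraries that stand apart, and 0 to 1 with a library left out.

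Genes called in HFD against NFD, 720 as reported, were 1686 in DESeq2, 374 without the libraries that stand apart and 178 to 1181 with a library left out. The split was 475 higher and 245 lower as reported, 407 and 332 with upper-quartile scaling, 320 and 416 in limma-trend on log2(FPKM + 1), and 403 and 117 in one fit of all 12 libraries. In HFD+TUDCA against HFD, 0 as reported, they were 343 in DESeq2, 115 in one fit of all 12 and 0 to 0 with a library left out. In HFD+TUDCA against NFD, 29 as reported, they were 533 in DESeq2, 47 in limma-trend, 682 without the library that stands apart and 4 to 682 with a library left out.

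None of the sign changes concerned a value that passed. In HFD against NFD, Tnc was -0.025 in limma-trend, -0.11 without the libraries that stand apart and -0.32 to 0.41 with a library left out, and Postn was -0.041 in limma-voom, -0.11 in limma-trend and -0.19 to 0.29. In HFD+TUDCA against HFD, Bgn was -0.11 without the libraries that stand apart and -0.087 to 0.28 with a library left out, Fn1 -0.48 to 0.026, Postn -1.12 to 0.080 and Sparc -0.26 to 0.13. In HFD+TUDCA against NFD, Vcan was -0.14 in limma-voom, -0.56 without HFD+TUDCA replicate 4 and -0.56 to 0.37 with a library left out, and Postn -1.10 to 0.15.

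The replicate numbers shared by the groups were not taken as a pairing. Deviations from the group means of same-numbered libraries correlated at 0.09 to 0.38 in HFD against NFD, -0.46 to -0.23 in HFD+TUDCA against HFD and -0.36 to -0.08 in HFD+TUDCA against NFD. HFD replicates 2, 3 and 4 each correlated best with the NFD library of the same number, and HFD replicate 1 with NFD replicate 3. A pairing by number is therefore not settled for HFD against NFD. In the other comparisons no library correlated best with its own number. With a replicate block 776, 0 and 8 genes were called in the 3 comparisons, Postn in HFD against NFD was -0.042 and Vcan in HFD+TUDCA against NFD -0.19. With 4 libraries a group, the differences of Postn, Vcan and Tnc passed under none of the alternatives tried, and that of Thbs1 in HFD against NFD passed in 2 of 18, DESeq2 and without HFD replicate 2.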
